A study of Mus musculus with 4 samples.

Results

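The genes described here encode the enzymes that add methyl groups to histone lysines (writers) and those that take them off (erasers). They were selected by gene symbol from the count table of a GSI washout experiment in Beko cells, and the selection took in the Kdm, Kmt2, Setd, Setdb, Suv39h, Suv420h, Smyd, Ehmt and Whsc1 symbols together with Ezh1, Ezh2, Eed, Suz12, Nsd1, Dot1l and Ash1l. It gave 54 of the 24391 genes in the table. Of these, 36 were grouped as writers, with the subunits of the writer complex PRC2 among them, and 18 as erasers. The writer group also holds relatives known for other activities, such as Kmt2e and Setd3. The Beko line consists of mouse T-cell progenitors with constant Notch activity. RNA-Seq of 4 libraries was analyzed. The GSI group consisted of 2 libraries of cells kept for 48 h with DAPT, a γ-secretase inhibitor (GSI) that stops Notch receptors from being cut into their active fragment, NICD. The washout group consisted of 2 libraries of cells that received the same 48 h of DAPT, were washed, and were then cultured for 24 h without it. Both groups thus carry the same exposure to the inhibitor, and both come from a single cell line. The labels give DAPT at 10 mg/ml whereas the methods give μg/ml, so the unit of the dose is uncertain. Libraries treated with DMSO alone, or washed without prior inhibitor, were not analysed here, and the return of Notch activity, the wash and the additional 24 h of culture cannot be told apart.

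Histone lysine methylation marks the state of chromatin. H3K4 methylation is found at active promoters and enhancers, H3K36 and H3K79 methylation over transcribed genes, and H3K9, H3K27 and H4K20 methylation mostly at silent or compacted chromatin. Several of the enzymes are known from Notch biology. In the absence of NICD, the DNA-binding protein RBPJ recruits corepressors that include the H3K4 demethylases KDM5A and KDM1A (LSD1), and the H3K4 methyltransferase KMT2D (MLL2) acts at the same target genes when Notch is active. In Notch-driven T-cell leukemia, PRC2 and the H3K27 demethylase UTX (KDM6A) are known as tumor suppressors and JMJD3 (KDM6B) as a factor that the leukemic cells need.

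The reads counted on genes came to between 13716199 and 36364200 per library, and replicate 1 was the deeper library in both groups. Washout was compared with GSI over the 12266 genes with enough counts by edgeR's quasi-likelihood test, which is two-sided, and p-values were adjusted over all of them. Genes rose or fell in the text where the adjusted p was under 0.05, and they passed both thresholds where the log2 fold change was also above 1 or below -1. Levels are given as CPM, which are counts scaled to the library size with TMM factors. Where genes are compared with each other, CPM was divided by the exon length in kilobases (RPKM). The labels do not say whether the replicates came from separate cultures, so the p-values measure only the spread between these libraries.

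Upon washout, 11 members rose and 20 fell among the 52 that could be tested. Over all genes tested, 27.0% rose and 25.4% fell, while among the members 21.2% rose and 38.5% fell. Past both thresholds 4 members were higher, or 7.69%, against 7.74% of all genes. In the other direction 7 members were lower, or 13.5%, against 11.7% of all genes. Past both thresholds the members' shares were thus close to those of the whole table, while the share that fell at any size was higher than in the table. The median log2 fold change was -0.11 over the members and -0.01 over all genes tested, and the members spread less widely, with an SD of 0.79 against 0.93. The balance of directions moved with offsets for GC content and exon length, which were entered together, so that the part of each cannot be told apart. With these offsets in the fit, 15 members were higher and 13 lower, against 29.9% and 26.9% of the 11708 genes in that fit, and the median of the members was 0.07. Scaling by the total count alone lowered the median of all genes by 0.199, to -0.209. It left 9 members higher and 23 lower, against 2316 and 4248 of the 12266 genes tested. The median of the members also varied with single libraries. Without GSI replicate 2 it was -0.04, against -0.01 over all genes tested. Without GSI replicate 1 it was -0.18, against -0.00, and without washout replicate 2 it was -0.19, against -0.01. Without washout replicate 1 it hardly moved, at -0.12, against -0.01.

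**Figure D1:**
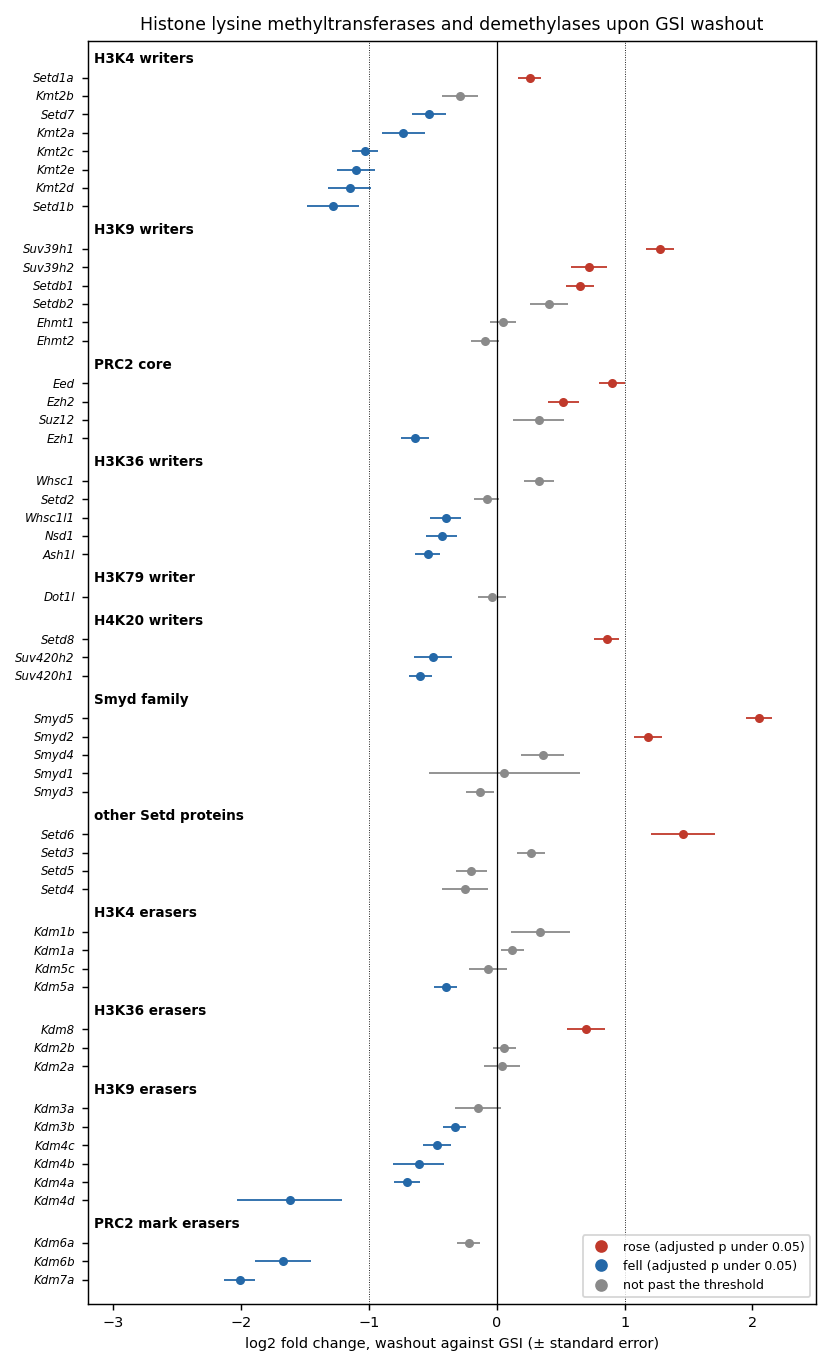
Log2 fold change of washout against GSI for each of the 52 members tested, by enzyme class (the PRC2 mark is H3K27 methylation), with the standard error as a bar (edgeR, 2 libraries per group). Red points rose and blue points fell at an adjusted p under 0.05, grey points did not pass, and the dotted lines mark a log2 fold change of 1 in size. Smyd5 is the highest at 2.05 and Kdm7a the lowest at -2.01.

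The groups did not overlap for 42 of the 52 members tested. Both washout libraries were above both GSI libraries for 17 members, which is 32.7% against 38.2% of all genes tested, and both were below for 25 members, which is 48.1% against 39.1%. With 2 libraries in each group such a separation is common. Every one of the 31 members that rose or fell showed it. The counting may not have used strand, and Setdb1, Suv39h2, Ezh2, Suz12, Whsc1, Suv420h1, Kdm5a, Kdm1a, Kdm1b and some of those named further on share bases with a gene on the other strand, so that their values may hold reads of that gene. Ash1l, Kdm1a, Kmt2c, Setd1a, Setdb2 and Whsc1l1 share bases with an annotated gene on their own strand. Within a group, libraries lay close together. The median absolute log2 difference between replicates was 0.19 for GSI and 0.13 for washout. Over 0.5 apart were Kdm6b, Setd6 and Smyd1 in GSI and Kdm1b, Kdm4b, Smyd1 and Suz12 upon washout.

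Per length, the member with the highest mean over the 4 libraries was Ehmt2 (G9a), which writes H3K9 mono- and dimethylation, with 62.0 and 66.9 RPKM in GSI, against 56.6 and 64.6 RPKM after washout. Next came Suz12, Kdm3a and Kdm4a, with such means of 55.8, 45.4 and 44.9 RPKM. In washout replicate 1 Suz12 was above Ehmt2, at 74.4 RPKM, and it was below in the other libraries. Setd8 and Ezh2 followed at 40.4 and 37.2 RPKM. Replicates differed enough that Ehmt2, Suz12, Kdm3a and Kdm4a could not be put in a firm order. At the other end Setd1b, Kdm4d and Smyd1 had mean levels of 2.06, 0.280 and 0.109 RPKM.

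Summed over the members, the transcript level hardly differed between groups, with 837 and 907 RPKM in GSI, against 891 and 893 RPKM after washout. Within that sum, the writers together had 508 and 550 RPKM in GSI, against 620 and 600 RPKM after washout, and the erasers 329 and 357 RPKM in GSI, against 271 and 293 RPKM after washout. For both sums the groups were apart, the writers being higher and the erasers lower in each washout library. These sums come from few libraries and follow the abundant genes, and they were not tested. In RNA from a whole culture, fewer cells that express a gene and less RNA of it per cell cannot be told apart.

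**Figure D2:**
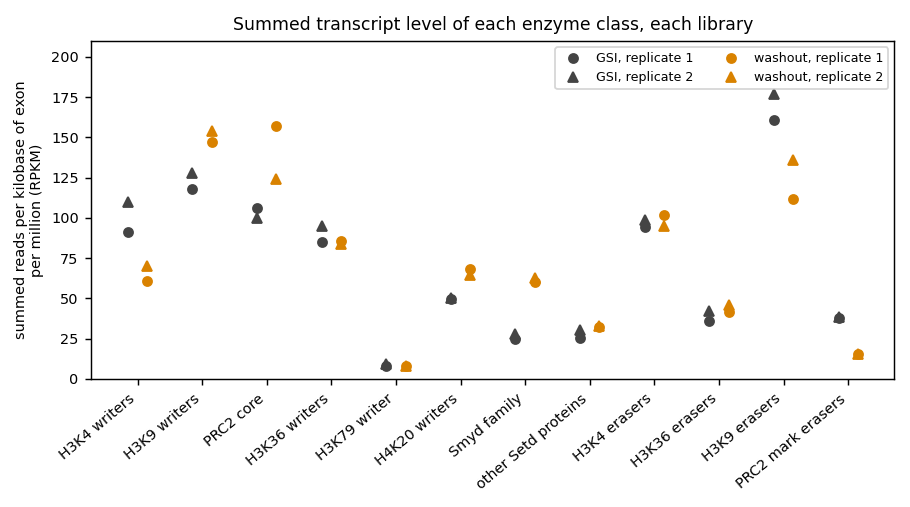
Summed level of each enzyme class in RPKM (linear axis from 0, with the H3K27 erasers as PRC2 mark erasers), with 1 point per library, grey for GSI and orange for washout, circles for replicate 1 and triangles for replicate 2. The classes that stand apart most are the H3K27 erasers at 37.6 and 38.6 RPKM in GSI, against 15.5 and 15.8 RPKM after washout, and the Smyd family at 25.0 and 27.9 RPKM in GSI, against 60.3 and 62.8 RPKM after washout.

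The H3K4 writers were read as a class of 8 genes that includes Kmt2e, a relative known to bind rather than to write H3K4 methylation. Without Kmt2e, which was left out after the values were seen, 5 of 7 fell and 1 rose, or 3 fell and none rose without GSI replicate 2. The median log2 fold change of these 7 genes was -0.73, and it stayed below 0 with the total count alone (-0.93) and with GC and length offsets (-0.41). Apart from Kmt2e, the MLL and SET1 proteins are the catalytic subunits of the COMPASS complexes. Kmt2d, which writes H3K4 monomethylation at enhancers, had 282 and 359 CPM in GSI, against 128 and 162 CPM after washout. Its washout libraries were clearly below both GSI libraries, and the log2 fold change was -1.15 (SE 0.17, edgeR adjusted p = 0.00231). Kmt2d lies on chromosome 15 from 98662100 to 98701614 (mm9), and no other annotated gene overlaps it. Kmt2c, its close relative, had 278 and 306 CPM in GSI, against 140 and 146 CPM after washout, with a log2 fold change of -1.03 (SE 0.10, edgeR adjusted p = 0.000650). Kmt2e (MLL5) fell from 79.5 and 99.7 to 38.5 and 45.4 CPM, a log2 change of -1.10. Setd1b, a catalytic subunit of the complexes that write H3K4 trimethylation, was the lowest of the class and fell from 26.9 and 36.6 to 11.6 and 14.7 CPM, a log2 change of -1.28. In both Kmt2e and Setd1b all washout values were below all GSI values. Srpk2 overlaps Kmt2e, and Gm17627 overlaps Setd1b, on the other strand. Kmt2c is overlapped by RP23-171F16.1 on its own strand and by RP23-171F16.2 and RP23-171F16.3 on the other.

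Kmt2a, the MLL1 gene that is rearranged in human leukemia, fell less, from 131 and 178 to 83.8 and 102 CPM, with a log2 fold change of -0.73 (SE 0.17, edgeR adjusted p = 0.0142). Setd7, a monomethyltransferase that also acts on proteins other than histones, fell by 0.53. Kmt2b went from 116 and 132 to 89.8 and 112 CPM and did not pass the threshold (log2 fold change -0.29, SE 0.14, edgeR adjusted p = 0.114). Setd1a, the paralog of Setd1b, was the exception. It had 68.7 and 71.7 CPM in GSI, against 84.0 and 84.6 CPM after washout, a log2 fold change of 0.26 (SE 0.09, edgeR adjusted p = 0.0454). DESeq2 (adjusted p = 0.107), the total count alone (0.06, edgeR adjusted p = 0.557) and the omission of any single library (0.23 to 0.29, edgeR adjusted p from 0.0927 to 0.249) each ended the call of Setd1a, as did thinned libraries and a minimum of 10 counts. With GC and length offsets the change of Setd1a was larger, at 0.59 (edgeR adjusted p = 0.00138). In that fit Kmt2d, Kmt2c and Setd1b still fell, but by 0.41, 0.62 and 0.77 on the log2 scale, and Kmt2a no longer passed (-0.28, edgeR adjusted p = 0.0989). Kmt2e hardly moved (-1.07). Without GSI replicate 2, Kmt2d, Kmt2c and Kmt2e were at -0.96, -0.96 and -0.93, just short of the fold threshold, and Kmt2a (-0.49, edgeR adjusted p = 0.0563) and Setd7 (-0.37, edgeR adjusted p = 0.103) were not called. In RPKM, the 8 genes of the class, Kmt2e included, summed to 91.5 and 110 in GSI and to 60.9 and 70.0 upon washout.

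Of the 10 H3K9 writers and PRC2 subunits, 5 rose and 1 fell. The H4K20 writers, of which 1 rose and 2 fell, are not in this count and are given further on. Of the 6 H3K9 writers 3 rose and none fell, with a class median of 0.53, which remained above 0 with the total count alone (0.33) and with GC and length offsets (0.43). Suv39h1 encodes a methyltransferase for H3K9 trimethylation at pericentromeric heterochromatin. It had 61.3 and 72.3 CPM in GSI, against 161 and 161 CPM after washout, so that the washout libraries agreed closely and lay far above GSI, and the log2 fold change was 1.28 (SE 0.11, edgeR adjusted p = 0.000476). Its gene lies on chromosome X from 7638297 to 7651886 (mm9) and overlaps Gm14820 on the other strand. Suv39h2, its paralog, rose at a lower level, from 15.8 and 15.2 to 27.5 and 23.5 CPM, a log2 change of 0.72. Setdb1, which trimethylates H3K9 at retroelements together with the corepressor TRIM28, rose from 94.5 and 110 to 158 and 163 CPM, by 0.65. Setdb2 was at 0.41 and missed the threshold (SE 0.15, edgeR adjusted p = 0.0565), which it passed at 0.27 with GC and length offsets (edgeR adjusted p = 0.0441). Ehmt1 and Ehmt2, which form the G9a/GLP dimethyltransferase, had log2 fold changes of 0.05 and -0.09 (SE 0.10 and 0.11), and their groups overlapped.

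PRC2 writes H3K27 methylation with EZH1 or EZH2 as its catalytic subunit and EED and SUZ12 as its other core subunits. Eed rose from 37.4 and 34.7 to 68.7 and 65.7 CPM, with a log2 fold change of 0.90 (SE 0.10, edgeR adjusted p = 0.000870). Ezh2, the catalytic subunit of dividing cells, had 184 and 195 CPM in GSI, against 295 and 248 CPM after washout. Its log2 fold change was 0.52 (SE 0.12, edgeR adjusted p = 0.0116), and the call was lost with the total count alone (0.32, edgeR adjusted p = 0.0579) and without GSI replicate 1 (0.48, edgeR adjusted p = 0.0751). Ezh1, the subunit that prevails in resting cells, fell from 50.3 and 48.2 to 29.9 and 33.5 CPM, a log2 change of -0.64 (edgeR adjusted p = 0.00399). Here the paralogs moved in opposite directions with no overlap of the groups in either. Suz12 had 261 and 229 CPM in GSI, against 368 and 246 CPM after washout. The washout replicates of Suz12 were far apart, and its log2 fold change of 0.33 (SE 0.20) did not pass (edgeR adjusted p = 0.207).

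Among the writers of H3K36 methylation, which follows elongating polymerase, 3 of 5 fell and none rose. Ash1l fell from 165 and 185 to 120 and 121 CPM, a log2 change of -0.54 (edgeR adjusted p = 0.00534). Nsd1 and Whsc1l1 (NSD3) fell by 0.43 and 0.40, and both calls were lost with GC and length offsets, with edgeR adjusted p-values of 0.146 and 0.558. Nsd1 and Whsc1l1 were not called either without GSI replicate 2 (-0.36 and -0.26) or without washout replicate 1 (-0.32 and -0.35), nor Nsd1 without GSI replicate 1 (-0.50, edgeR adjusted p = 0.0513), which leaves 1 of the 5 falling in the former fits. Setd2, which writes trimethylation, had 247 and 258 CPM in GSI, against 252 and 225 CPM after washout, and the groups overlapped. Whsc1 (NSD2), which writes dimethylation, had 404 and 471 CPM in GSI, against 561 and 539 CPM after washout. Its log2 fold change of 0.33 (SE 0.12) narrowly missed the threshold (edgeR adjusted p = 0.0594) and passed with DESeq2 and with GC and length offsets (0.64, edgeR adjusted p = 0.00176). Dot1l, the sole H3K79 methyltransferase, was at -0.04 (SE 0.11, edgeR adjusted p = 0.766) and at 0.38 with those offsets (edgeR adjusted p = 0.0162). The H4K20 writers moved apart. Setd8, which monomethylates H4K20 in the course of the cell cycle, rose from 117 and 114 to 219 and 201 CPM, with a log2 fold change of 0.86 (SE 0.10, edgeR adjusted p = 0.000952). Suv420h1, which carries the mark on to di- and trimethylation, fell from 154 and 143 to 101 and 95.8 CPM, a log2 change of -0.60 (edgeR adjusted p = 0.00289), and Suv420h2 fell by 0.50. The call of Suv420h2 was lost with GC and length offsets (-0.31) and with thinned libraries (-0.47). It was also lost without GSI replicate 2 (-0.34) and without washout replicate 1 (-0.37).

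The largest rise of all members was that of Smyd5, a gene of the SET and MYND domain family. It had 17.3 and 16.7 CPM in GSI, against 72.3 and 69.0 CPM after washout, with replicates that nearly coincided, and the log2 fold change was 2.05 (SE 0.10, edgeR adjusted p = 0.000281). Smyd5 lies on chromosome 6 from 85381983 to 85396429 (mm9) with no overlapping gene, and its log2 fold change was 1.85 with the total count alone and 2.10 with GC and length offsets. Smyd2, whose product also methylates p53 and the retinoblastoma protein, rose from 34.8 and 40.1 to 80.7 and 88.4 CPM. Its change on the log2 scale was 1.18 (SE 0.11, edgeR adjusted p = 0.000620), or 0.98 with the total count alone. Smyd3 and Smyd4 did not pass, at -0.13 and 0.36. Smyd1, a muscle gene, was near the limit of detection with 10, 11, 21 and 4 counts. Setd6, known for methylating the NF-κB subunit RelA, rose from 4.53 and 7.33 to 15.8 and 16.1 CPM. The GSI replicates of Setd6 differed, the washout replicates did not, and the log2 fold change was 1.46 (SE 0.25, edgeR adjusted p = 0.00403). Setd3, now known as an actin histidine methyltransferase, Setd4 and Setd5 did not pass the threshold.

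**Figure D3:**
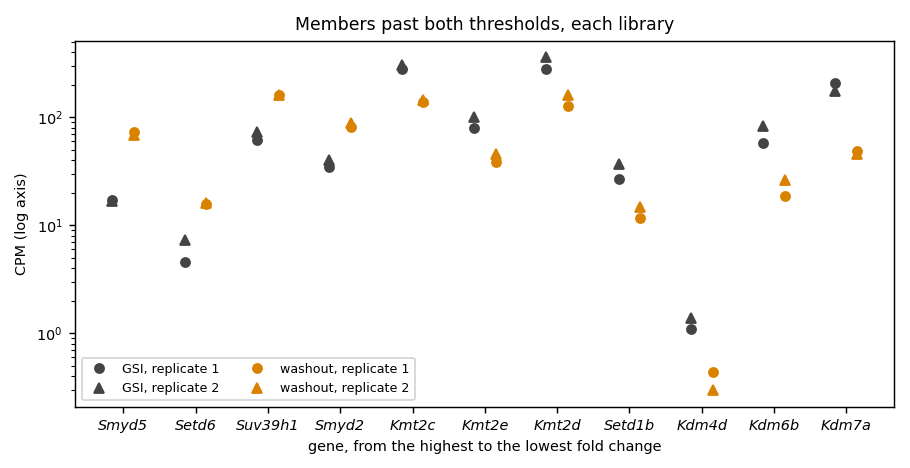
CPM in each library (log axis) of the 11 members past both thresholds, from the highest to the lowest log2 fold change. Grey points are GSI and orange points washout, circles replicate 1 and triangles replicate 2. In all 11 genes the groups are apart, as the choice of called genes makes likely, and Kdm4d lies far below the others at 0.298 to 1.37 CPM.

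Of the 16 erasers tested, 8 fell and 1 rose, with a median log2 fold change of -0.28. The median remained below 0 with the total count alone (-0.48) and with GC and length offsets (-0.17). Without GSI replicate 1 or 2 it was -0.33 or -0.26. In both of these fits fewer erasers fell, as did fewer genes of the whole table. Strongest were the falls among the H3K27 erasers, where 2 of 3 passed both thresholds. Kdm7a, which removes H3K9 and H3K27 dimethylation, had 206 and 175 CPM in GSI, against 49.0 and 45.6 CPM after washout. This was the largest fall of any member, with a log2 fold change of -2.01 (SE 0.12, edgeR adjusted p = 0.000303). Kdm7a lies on chromosome 6 from 39086622 to 39156788 (mm9), and 4930599N23Rik overlaps it on the other strand. Kdm6b, the inducible H3K27 demethylase, had 58.1 and 82.6 CPM in GSI, against 18.7 and 26.0 CPM after washout. Its replicates differed by more than those of most members, yet both washout values lay far below GSI, and the log2 fold change was -1.67 (SE 0.22, edgeR adjusted p = 0.00165). The Kdm6b gene, on chromosome 11 from 69212010 to 69227177 (mm9), overlaps 1700064E03Rik on the other strand. Kdm6a, the X-linked paralog, had 71.2 and 76.4 CPM in GSI, against 64.6 and 61.8 CPM after washout, a log2 fold change of -0.22 (SE 0.09) that did not pass (edgeR adjusted p = 0.0903). Its Y-linked relative Uty, which was not among the members, had 42.4 and 39.8 CPM in GSI, against 34.9 and 23.3 CPM after washout.

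Among the H3K9 erasers 5 of 6 fell and none rose, with a class median of -0.54. Kdm4a, per length the most abundant of those that fell, went from 329 and 314 to 188 and 209 CPM, a log2 change of -0.70 (SE 0.10, edgeR adjusted p = 0.00250). Kdm4c fell by 0.47 and Kdm3b by 0.33, and Kdm4b fell by 0.61 with an adjusted p of 0.0446 from edgeR and washout replicates of 71.7 and 109 CPM. Kdm4d passed both thresholds (-1.62, SE 0.41, edgeR adjusted p = 0.0176) on 35 and 20 counts in GSI, against 15 and 4 after washout, and DESeq2 did not call it (adjusted p = 0.102). In the class only Kdm4a was called in every fit run. Without GSI replicate 1, 2 of the H3K9 erasers fell, without GSI replicate 2 only Kdm4a did, and without washout replicate 1, 3 did, with Kdm4b at -0.32. With GC and length offsets 3 fell, Kdm3b (-0.17) and Kdm4b (-0.37) no longer among them. Kdm3a had 206 and 269 CPM in GSI, against 183 and 244 CPM after washout, with overlapping groups. Together the H3K9 erasers had 161 and 177 RPKM in GSI, against 112 and 136 RPKM after washout. The H3K9 writers had 118 and 128 RPKM in GSI, against 147 and 154 RPKM after washout, so that their sum was below that of the erasers in both GSI libraries and above it in both washout libraries. This comparison of sums was made after the values were seen and was not tested.

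Each eraser was counted in a single class, even where its product acts on several residues. With this classing, fewer changes were found among the erasers of H3K4 and H3K36 methylation. Kdm5a, the demethylase of the RBPJ corepressor complex, had 268 and 274 CPM in GSI, against 210 and 201 CPM after washout. Kdm5a fell by 0.40 on the log2 scale (SE 0.09, edgeR adjusted p = 0.0134), and by 0.13 with GC and length offsets, where the call was lost (edgeR adjusted p = 0.184), as it was without GSI replicate 1 (-0.42, edgeR adjusted p = 0.0736) and without GSI replicate 2 (-0.39, edgeR adjusted p = 0.0865). Kdm1a had 163 and 162 CPM in GSI, against 176 and 177 CPM after washout. Both washout libraries of Kdm1a lay above both GSI libraries by a small step that did not pass (log2 fold change 0.12, SE 0.09, edgeR adjusted p = 0.292). Kdm5c had overlapping groups. Kdm1b had washout replicates of 144 and 84.4 CPM, which lay on either side of its GSI values of 93.6 and 87.6 CPM. Kdm5b was too low to be tested, with 8 and 17 counts in GSI and just 2 and 3 after washout. The Y-linked Kdm5d was listed at 0 in every library, although Uty on the same chromosome was not. For the H3K36 erasers, Kdm8 (JMJD5) rose from 12.4 and 15.1 to 21.8 and 22.7 CPM, a log2 change of 0.70 (edgeR adjusted p = 0.00903) and by 0.56 without GSI replicate 1, where it was not called (edgeR adjusted p = 0.0663), while Kdm2a and Kdm2b were at 0.04 and 0.06. With GC and length offsets Kdm2b was called as well, at 0.38 (edgeR adjusted p = 0.0111), so that 2 of the 3 H3K36 erasers were higher in that fit.

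Ratios between paralogs, between enzymes that act in sequence on a residue, or between erasers of the same class show how the makeup of a class shifted. The pairs were picked after the values were seen, and no test was run. Per length, Ezh2 was at 4.40 and 4.85 times the level of Ezh1 in the GSI libraries and at 11.9 and 8.89 times that level in the washout libraries. The ratio of Setd8 to Suv420h1 was 2.60 and 2.72 in GSI and 7.42 and 7.15 upon washout. For Kdm7a to Kdm6a it was 2.35 and 1.86 in GSI and 0.615 and 0.598 upon washout, which turned the order of these genes, and for Kdm6b to Kdm6a it was 0.957 and 1.27 in GSI and 0.340 and 0.493 upon washout. Suv39h1 was at 3.24 and 3.98 times the level of Suv39h2 in GSI and at 4.91 and 5.75 times upon washout, a smaller shift. Such ratios within a library do not depend on the scaling between libraries.

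The members are long genes, with a median exon length of 6904 bp against 3536 bp over the genes tested. The longest lie among those that fell. Members that rose had a median exon length of 4035 bp and a range of 1869 to 6853 bp. Those that fell had a median of 8924 bp, from 2861 bp for Kdm4d to 20296 bp for Kmt2c, and those that did not pass a median of 7110 bp. Across the 52 members the log2 fold change ran against the log2 exon length with correlations of -0.54 (Pearson) and -0.55 (Spearman). Across 11708 genes the correlations were -0.09 and -0.12. With GC and length offsets, which flatten the trend over all genes (0.03 and 0.02), the members' correlations were -0.41 and -0.44. With GC content the members' log2 fold change had correlations of -0.00 and -0.04. The genes share the same 4 libraries and are not independent, so these are descriptions, and the part of length in the result was not tested.

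**Figure D4:**
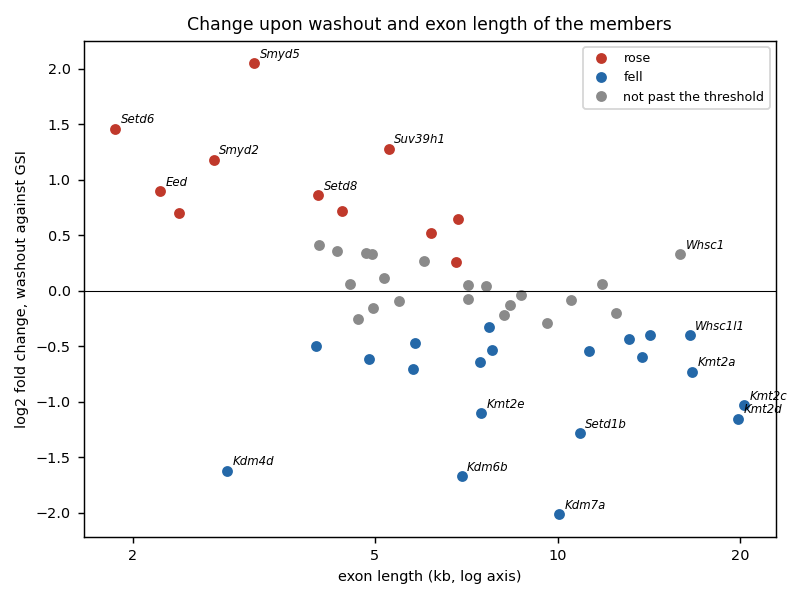
Log2 fold change of washout against GSI and exon length in kilobases (log axis) for the 52 members tested, with 1 point per gene, red where it rose, blue where it fell and grey where it did not pass. Members that rose end at 6853 bp, and the longest genes, Kmt2c and Kmt2d, lie at -1.03 and -1.15.

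The promoters were searched for the letters of the core site of RBPJ, the DNA-binding protein of the Notch pathway, and of the site of E2F factors, which act on S phase genes. RefSeq (GRCm38.p6) gave a window of 250 bases before the start for 41 members and none for 13. The RBPJ letters TGGGAA, or TTCCCA on the other strand, were in 5 of the 41, or 12.2%, against 23.3% of 9073 genes tested with a window and 21.6% of all windows. The 5 were Ehmt2, Setd7, Setdb1, Smyd1 and Suv420h1, of which 1 rose and 2 fell. The E2F letters were TTTCCCGC, TTTGGCGC, TTTGCCGC and TTTCGCGC, with GCGGGAAA, GCGCCAAA, GCGGCAAA and GCGCGAAA on the other strand. They do not contain the RBPJ letters. They were in 3 members, or 7.32%, against 3.96% of the genes tested and 1.86% of all windows, namely in Suv39h1, which rose, Suv420h2, which fell, and Suz12, which did not pass. The windows printed here are those of the largest rise and the largest fall, which hold none of these letters, those of a riser with the RBPJ letters, and those of a riser and a faller with the E2F letters. They run 5′ to 3′ on the strand of the gene, on GRCm38.p6, with the motif in capitals. They lie at chr6:85431726-85431975 on the plus strand for Smyd5, chr6:39206774-39207023 on the minus strand for Kdm7a, chr3:95357203-95357452 on the minus strand for Setdb1, chrX:8074362-8074611 on the minus strand for Suv39h1, which has 2 windows, and chr7:4739877-4740126 on the plus strand for Suv420h2, which RefSeq lists as Kmt5c.
Smyd5: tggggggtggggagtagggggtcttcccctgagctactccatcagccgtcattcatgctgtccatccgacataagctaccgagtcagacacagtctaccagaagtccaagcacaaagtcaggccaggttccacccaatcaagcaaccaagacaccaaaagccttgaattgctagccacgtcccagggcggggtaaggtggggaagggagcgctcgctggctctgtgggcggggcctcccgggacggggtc
Kdm7a: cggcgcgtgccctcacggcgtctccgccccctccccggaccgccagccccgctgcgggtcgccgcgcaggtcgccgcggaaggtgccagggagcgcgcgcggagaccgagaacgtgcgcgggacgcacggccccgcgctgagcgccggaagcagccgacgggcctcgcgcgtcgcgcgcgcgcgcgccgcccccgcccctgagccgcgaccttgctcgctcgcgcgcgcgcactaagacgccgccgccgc
Setdb1: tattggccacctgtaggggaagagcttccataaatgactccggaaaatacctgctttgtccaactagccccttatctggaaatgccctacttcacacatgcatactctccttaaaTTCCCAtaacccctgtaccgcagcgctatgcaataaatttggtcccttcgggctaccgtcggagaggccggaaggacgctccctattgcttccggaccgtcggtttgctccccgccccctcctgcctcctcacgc
Suv39h1: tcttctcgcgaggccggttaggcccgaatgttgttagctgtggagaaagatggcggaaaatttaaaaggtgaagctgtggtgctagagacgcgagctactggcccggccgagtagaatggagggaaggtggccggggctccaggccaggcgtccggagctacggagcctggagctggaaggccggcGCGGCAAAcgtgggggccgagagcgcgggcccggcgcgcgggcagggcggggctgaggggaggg
Suv420h2: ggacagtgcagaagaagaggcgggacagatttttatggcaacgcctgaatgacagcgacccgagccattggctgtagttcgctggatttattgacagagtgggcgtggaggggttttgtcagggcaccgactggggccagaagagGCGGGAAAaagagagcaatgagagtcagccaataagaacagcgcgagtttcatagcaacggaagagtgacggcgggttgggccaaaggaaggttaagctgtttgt
A match in these windows describes the letters only, and enhancers outside them were not searched.

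The subunits that work with the members were read from a list of 31 partner genes, of which 18 rose and 6 fell. Their median log2 fold change was 0.51, or 0.31 with the total count alone. With GC and length offsets it was 0.47 over 30 of them, as that fit did not hold Atf7ip, a gene that fell. In the COMPASS complexes the partners and the catalytic subunits differed in direction. Of the 11 partner subunits listed, not all of which are in every complex, 9 rose and 1 fell, with a median of 0.57. Among the 6 catalytic MLL and SET1 proteins 1 rose and 4 fell, with a median of -0.88. With GC and length offsets the medians were 0.65 and -0.34, and 9 partners and 1 catalytic subunit rose while 1 and 3 fell. Wdr5 and Dpy30, core subunits of every such complex, went from 90.6 and 88.5 to 157 and 156 CPM and from 30.7 and 31.4 to 66.7 and 59.4 CPM. Dpy30 and Paxip1, a subunit of the Kmt2c and Kmt2d complexes, passed both thresholds at 1.02 and 1.03, though not with the total count alone (0.82 and 0.84), nor Dpy30 with GC and length offsets (0.68). Ncoa6, from the same complexes, was the one that fell, by 0.56. PRC2 accessory genes were mixed, with 3 of 7 higher and 2 lower. Rbbp7, a histone-binding subunit, rose by 1.01 (0.81 with the total count alone and 0.82 with GC and length offsets), whereas Jarid2, which recruits PRC2, fell from 172 and 144 to 66.1 and 59.4 CPM (log2 fold change -1.33, SE 0.12, edgeR adjusted p = 0.000554). Phf1, a Polycomb-like subunit, fell by 1.12, or by 0.97 with GC and length offsets.

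Around Kdm1a, 1 of 6 genes of the CoREST complex rose and 2 fell. Rcor3 was the lowest at -1.69, from 10.7 and 7.26 to 3.32 and 2.08 CPM, and Hdac2 rose by 0.73. The partners of H3K9 methylation went mostly with its writers, with 5 of 7 higher and 1 lower, or 3 higher without GSI replicate 1. Trim28 had 629 and 723 CPM in GSI, against 1289 and 1414 CPM after washout (edgeR adjusted p = 0.00169), a rise that did not exceed the fold threshold, and the HP1 genes Cbx1, Cbx3 and Cbx5 rose by 0.59, 0.86 and 0.75. Atf7ip, which binds and stabilizes SETDB1, fell from 155 and 149 to 71.6 and 64.7 CPM, a log2 change of -1.16. Setdb1 and Trim28 were thus higher upon washout, and Atf7ip was lower, in each library.

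**Figure D5:**
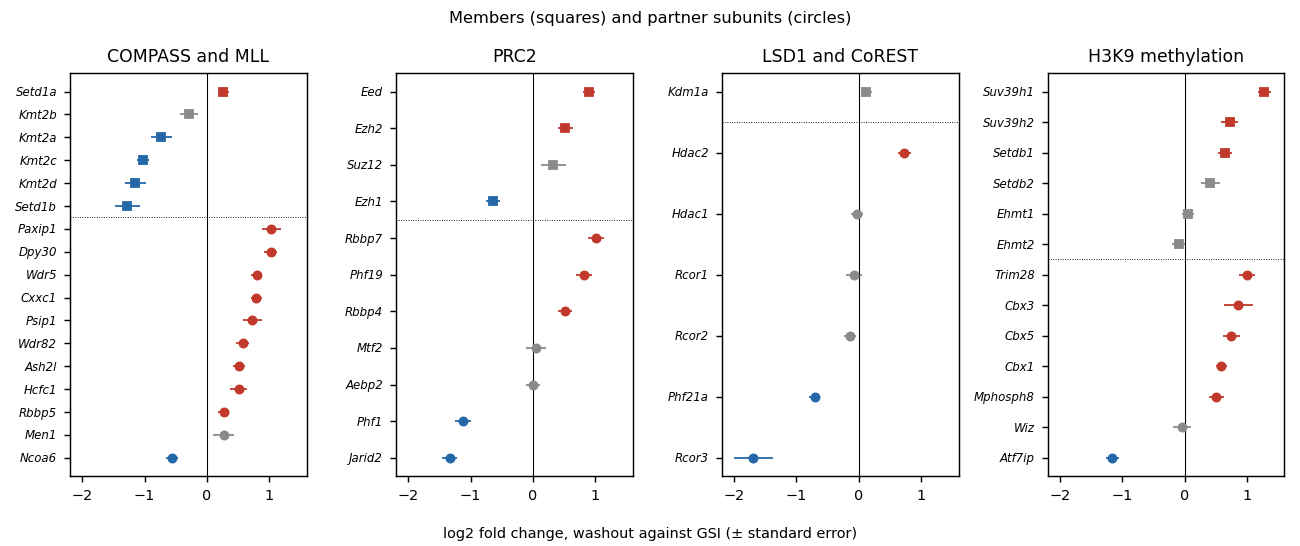
Change on the log2 scale, with a bar for the standard error, for members (squares, above the dotted line) and the partner subunits of their complexes (circles, below it), with red for genes that rose, blue for genes that fell and grey for those that did not pass. In the COMPASS panel Kmt2a, Kmt2c, Kmt2d and Setd1b lie left of 0, and 9 of the 11 partners lie right of it at an adjusted p under 0.05.

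Writers and erasers with other kinds of symbols, mostly Prdm genes, were followed in a list of 23 genes, of which 16 could be tested, 4 rose and 5 fell (3 without GSI replicate 1). Mina, an oxygenase of the JmjC family, rose from 1.09 and 1.37 to 4.64 and 8.18 CPM (2.38 on the log2 scale), and Prdm16 from 31.5 and 37.8 to 68.9 and 87.5 CPM (1.18). Prdm1 (Blimp-1), which drives terminal lymphocyte differentiation, had 1.66 and 1.58 CPM in GSI and was under the limit of 3 counts in both washout libraries (edgeR adjusted p = 0.000873). Hr, the hairless corepressor, fell by 1.68. The list of arginine methyltransferases, which modify histones at another residue, also held Wdr77, the partner of PRMT5. Of its 10 genes 9 were tested and 7 rose, with a median of 0.95. Wdr77 had the highest log2 fold change at 1.53, followed by Prmt1, Prmt3 and Prmt7 at 1.41, 1.33 and 1.28, and Prmt2 fell by 1.48.

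Genes of other programs also differed between the groups. All 19 S phase genes of a list rose, 17 of them past both thresholds, with a median of 1.49. The lowest of them was Ccne1 at 0.54. Of 8 Notch target genes 7 rose past both thresholds, with Hey1 the highest at 3.47, and Notch3 did not pass at 0.14. The 11 T-lineage markers were all tested and summed to 4663 and 5240 CPM in GSI, against 5450 and 5332 CPM after washout. Rag1 made up much of these sums, with 1763 and 2367 CPM in GSI, against 2765 and 2554 CPM after washout. Of the 11 markers 3 rose and 4 fell. Ptcra, the pre-TCR alpha chain, had the largest rise at 2.37, and Cd3g and Rag2 rose by 0.86 and 0.64. Cd28 and Cd2 fell past both thresholds, at -1.47 and -1.29, and Bcl11b and Thy1 fell by 0.72 and 0.58. B-lineage markers were too low to be tested, with sums of 0.323 to 0.959 CPM and Ms4a1, Pax5, Ebf1 and Blk at 0. Myeloid markers summed to 49.3 and 38.4 CPM in GSI, against 5.52 and 5.06 CPM after washout, nearly all of it from Itgam, 1 of 8 tested, with Lyz2 and Elane at 0. Mast cell markers summed to 274 and 167 CPM in GSI, against 45.7 and 30.5 CPM after washout, from Cpa3 and Kit, 2 of 7 tested, with Cma1, Mcpt4, Fcer1a and Ms4a2 at 0. The erythroid list gave 13.2 and 12.3 CPM in GSI, against 6.90 and 6.92 CPM after washout, with the globin genes at 0. The part of cell division, or of a shift between cell states, in the changes of the members was not tested.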

How the data were processed

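Total RNA of Beko cells was sequenced after ribosomal RNA removal with a stranded kit. After trimming, the authors aligned reads to mm9 with HISAT2 2.2.1, counted reads per gene with summarizeOverlaps and deposited these raw counts with no normalization. The strand setting and overlap mode are not given in the sources used here, so the values of overlapping genes are uncertain. The submitters' processing notes also list DESeq2 1.24.0.

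Groups were taken from the labels. All 12266 genes that passed filterByExpr were fitted with edgeR 4.0.16 (R 4.3.3), with TMM factors over full library totals, the quasi-likelihood test without covariates and Benjamini-Hochberg adjustment. The SE was the ratio of the log2 fold change to the root of the F statistic. In the libraries 3 counts correspond to 0.0881 to 0.223 CPM, which covers counting error only. Replicates of a group differed beyond sampling noise (chi-square of 17.2 and 27.7 per degree of freedom), correlated at 0.99 and 0.988 and were kept apart. Positions, exon lengths and GC content came from GENCODE vM1 on mm9, matched for all 54 members, 7 of them by an older symbol, and for 90.3% of all genes. Promoters came from RefSeq (GRCm38.p6), a different build. The edgeR script was tested on simulated data.

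The members and the lists (partner subunits, other writers and erasers, arginine methyltransferases, S phase genes, Notch targets and markers of T, B, myeloid, mast and erythroid cells) were chosen with earlier results of these data known. Any member could be named, with the highest and lowest of each class, all past both thresholds, those with the highest level per length, the untested and those known from Notch biology in full. From each other list the highest, the lowest and genes past both thresholds were named. Wdr5, Uty, Hdac2, Phf1, the HP1 genes and T-lineage markers short of both thresholds were added after their values were seen where that rule does not name them. Alternatives were DESeq2 1.42.0, RLE size factors, the total count alone, other filters, the replicate number as a block, GC and length offsets, thinned libraries and the omission of each library.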

Additional observations from a re-analysis of the deposited data

How the results depend on the processing

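The counts of members that rose or fell, at either threshold, stayed within 1.5 times of the reported ones with DESeq2, RLE size factors, thinned libraries and a minimum of 10 counts in every library. With no filter beyond 1 count, 17 of 53 members rose in place of 11 of 52, against 3828 of the 17049 genes in that fit. With GC content and exon length offsets 13 fell in place of 20, 4 of them past both thresholds in place of 7. Of the 11708 genes in that fit 3145 fell, 1337 of them past both thresholds. The median log2 fold change of the members was 0.07 there in place of -0.11. It was -0.31 with the total count alone, as that scaling lowers all genes. For the other settings the cause was not tested. Leaving out each library in turn, with the lone library of a group assumed to vary like the other group, gave 8 to 13 members that rose, 10 to 21 that fell, 4 past both thresholds upward, 3 to 7 downward, and medians of -0.19 to -0.04.

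The replicate numbers come from the labels, and deviations from the group means correlated at 0.497 between same-numbered libraries. The labels do not say whether such libraries share more than a number, and 2 pairs cannot settle it. With the replicate number as a block, 17 members rose and 22 fell. Of the 12266 genes tested, 4243 rose and 4216 fell with the block, against 3315 and 3120 without it. With the block together with GC and length offsets 22 members rose and 20 fell, against 4260 and 4093 of 11708 genes. Past both thresholds 4 members rose and 4 fell in that fit, against 861 and 1434 of its 11708 genes, and the median of the members was 0.07.

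Signs turned only for members that had not passed the threshold. With GC and length offsets these were Dot1l (0.38), Ehmt2 (0.18), Kdm5c (0.09), Kmt2b (0.15), Setd2 (0.06) and Setd5 (0.02), and with the block added 0.39, 0.18, 0.09, 0.15, 0.07 and 0.03. With the total count alone they were Ehmt1 (-0.15), Kdm1a (-0.08), Kdm2a (-0.16), Kdm2b (-0.14) and Smyd1 (-0.14). Smyd1 was at -0.12 with DESeq2 and at -0.20 with thinned libraries, with or without the block, and Kdm2a at -0.00 with at least 10 counts in every library. With a library left out, members whose sign turned ranged from -0.15 to 0.07 (Dot1l), -0.00 to 0.10 (Ehmt1), -0.19 to 0.01 (Ehmt2), -0.10 to 0.67 (Kdm1b), -0.11 to 0.20 (Kdm2a), -0.37 to 0.05 (Kdm3a), -0.24 to 0.09 (Kdm5c) and -0.67 to 0.67 (Smyd1). Depth limits Kdm4d, Kdm5b and Smyd1.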
